A study of Zea mays with 11 samples.

Results

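Auxin genes of the maize inbred line Mo17 were followed through kernel development: those that make the hormone, those that move it and those that read it. They were chosen by the description that the deposited table gives for the closest gene of Arabidopsis thaliana. A member was any gene whose description, in upper or lower case, held the words auxin, indole-3-acetic, indoleacetic, pin-formed, yucca or tryptophan aminotransferase. This chose 120 of the 34145 genes in the table, without use of any measured value. Only 11464 genes carried a description, so maize auxin genes without one are not members. By the Arabidopsis gene matched, 12 members were of synthesis, 2 of conjugation, 15 of transport, 7 were receptors, 34 were auxin response factors (ARF), 37 were Aux/IAA genes, 4 were SAUR genes and 9 had other roles.

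The study measured poly(A) RNA by RNA sequencing in field-grown, self-pollinated Mo17 plants, with tissues dissected by hand. It had 8 libraries of endosperm, at 7, 9, 10 and 11 days after pollination (DAP) and then at 13, 15, 20 and 25 DAP, 1 library each of whole seed (the whole kernel) at 3 and 5 DAP, and 1 library of ear leaf at 13 DAP as the tissue outside the seed. All libraries were of the same line, and the series title names microRNAs, DNA methylation and starch synthesis. Each stage had 1 library, so the spread between plants of a stage was not measured. Whole seeds hold maternal tissue and embryo beside endosperm, so tissue and age cannot be told apart between the 5 and 7 DAP libraries. Values are FPKM (sequenced fragments corrected for gene length and library size) as deposited, to 2 decimals, and the depth behind them is unknown. A 0 means only that a gene is listed at 0.

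Auxin is made from tryptophan. Aminotransferases of the TAA1/TAR family turn tryptophan into indole-3-pyruvate, and flavin monooxygenases of the YUCCA family turn that into indole-3-acetic acid (IAA). AUX1/LAX carriers bring IAA into cells and PIN carriers let it out. In the nucleus, IAA joins TIR1/AFB F-box receptors to Aux/IAA repressors, which are then degraded and free ARF transcription factors to act. Maize endosperm is known to accumulate large amounts of IAA as it grows and fills.

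The sums of starchy endosperm and leaf markers followed the labelled tissues. The summed FPKM of 28 starchy endosperm genes, zeins among them, was 86.1 at 7 DAP, 39130.5 at 13 DAP and 77934.6 at 25 DAP, against 14.5 and 29.1 in whole seeds and 5.4 in leaf. Markers of other parts of the seed were present in dissected endosperm: 5 embryo genes summed to between 23.6 FPKM (7 DAP) and 139.6 FPKM (11 DAP), with 47.6 at 20 DAP and 116.7 at 25 DAP. Transfer cell genes (7) summed to 54.9 FPKM at 25 DAP, against 1064.4 FPKM at 7 DAP, and 4 genes of the embryo surrounding region to 0.4 FPKM at 25 DAP, against 296.6 FPKM at 7 DAP. Aleurone genes (3) summed to 92.8 FPKM at 7 DAP, 173.9 FPKM at 11 DAP, 62.6 FPKM at 20 DAP and 15.9 FPKM at 25 DAP. They summed to 21.6 and 16.5 FPKM in whole seeds and 28.5 FPKM in leaf. Leaf genes (30) summed to at most 308.9 FPKM in endosperm (15 DAP), against 6291.4 FPKM in leaf. Most of that endosperm sum was of ppdk1, at 299.28 FPKM at 15 DAP, against 4.49 FPKM at 7 DAP and 968.26 FPKM in leaf. Not every gene of the list was highest in leaf: the pep1 gene GRMZM5G899080 was at 30.65 FPKM at 7 DAP, against 2.52 FPKM in leaf. The part of embryo, transfer, embryo surrounding and aleurone cells in any result was not tested. In bulk tissue, fewer cells of a type and less RNA per cell cannot be told apart.

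The sums of the synthesis genes and of the Aux/IAA genes were laid out in opposite ways across the libraries. Summed over the 12 synthesis genes, FPKM was 4.19 and 6.40 in whole seeds at 3 and 5 DAP, 133, 159.9, 328, 329, 283, 337, 272 and 146 through the 8 endosperm stages in order of age, and 0.77 in leaf. Every endosperm library was above both whole seeds and the leaf in this sum. The aminotransferase genes TA1 and TAR3 made up between 89.7% (7 DAP) and 99.9% (25 DAP) of it in endosperm. Of the 12 genes, 8 stayed under 1 FPKM in every library. Their median was 0.20 FPKM or less in each endosperm library, against 0.06 and 0.05 FPKM in whole seeds and 0.01 FPKM in leaf. The 37 Aux/IAA genes summed to 484 and 376 FPKM in whole seeds, 79.6, 38.0, 50.6, 39.4, 41.0, 41.0, 57.8 and 37.4 FPKM through the endosperm stages and 245 FPKM in leaf, so that every endosperm library was below both other tissues. The 34 ARF genes summed to 304 and 261 FPKM in whole seeds, between 97.3 (10 DAP) and 132 FPKM (25 DAP) in endosperm, and 72.2 FPKM in leaf. The 7 receptors summed to 77.5 and 71.0 FPKM in whole seeds, between 22.4 and 31.9 FPKM in endosperm, and 21.2 FPKM in leaf. Transport was the lowest of these roles in endosperm: its 15 genes summed to 17.3 and 15.6 FPKM in whole seeds, 15.0, 5.96, 12.8, 9.12, 6.05, 6.17, 3.00 and 4.45 FPKM in endosperm and 2.87 FPKM in leaf. The synthesis sum was 8.84 times the transport sum at 7 DAP and 90.6 times at 20 DAP, against 0.243 and 0.41 times in whole seeds and 0.268 times in leaf. Both sums leave out genes without a description. Among these are the AUX1 match GRMZM2G127949 (9.90 and 10.9 FPKM in whole seeds, at most 1.07 FPKM in endosperm) and the YUC11 match GRMZM2G091819 (0.08 and 0.19 FPKM in whole seeds, up to 112 FPKM in endosperm). From 7 to 20 DAP most of the transport sum was of the AXR4 match, a helper rather than a carrier.

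**Figure D1:**
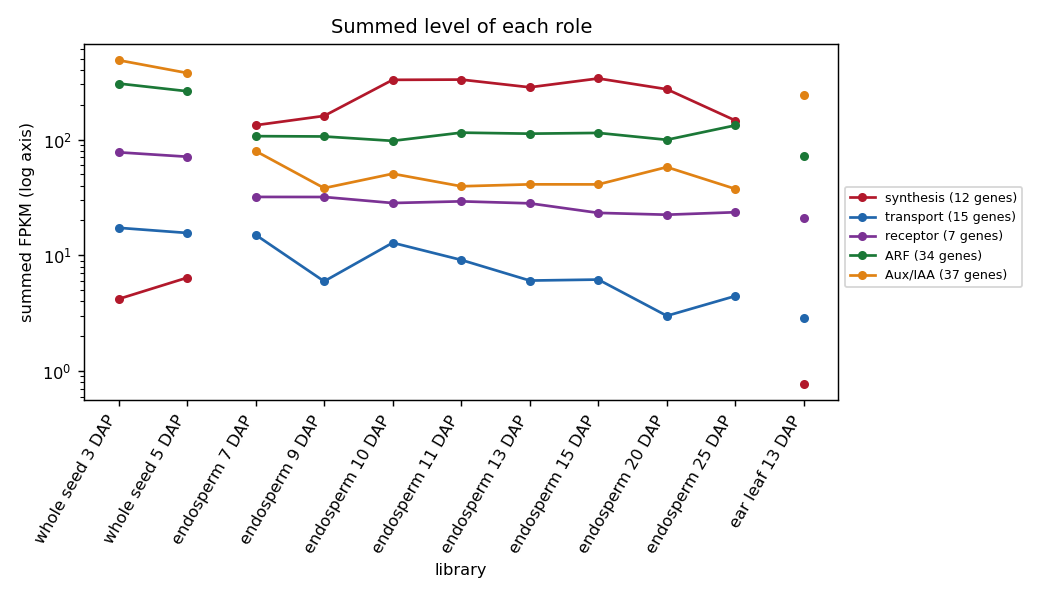
Summed FPKM (log axis) of the members of 5 roles in each library, in order of days after pollination with ear leaf last; each point is 1 library. The synthesis sum is 133 FPKM or more in every endosperm library, against 6.40 FPKM or less in the whole seeds and 0.77 FPKM in leaf. TA1 and TAR3 make up between 89.7% and 99.9% of it in endosperm. The Aux/IAA sum is 79.6 FPKM or less in endosperm, against 376 FPKM or more in whole seeds and 245 FPKM in leaf.

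Of the 120 members, 83 reached 1 FPKM in at least 1 library and 37 in none. The change through endosperm development was tested as the slope of log2(FPKM + 1) per day over the 8 endosperm libraries, and again with a curve (day and day squared together), for genes averaging at least 1 FPKM over these libraries. Here "rose" and "fell" mean a slope with an adjusted p under 0.05. Libraries of different days are not replicates, so the error is the departure from the line. Of the members, 47 passed this filter and 73 did not. Among those tested, 5 rose, 19 fell and 23 had no call, where 10.3% of all 15149 genes tested rose and 37.4% fell. The curved test called 29, where it called 54.4% of all genes tested, and 7 of the 29 had no trend call. The median slope of the tested members was -0.035 log2 units per day, beside -0.034 for all genes tested, so their median was close to that of the table.

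How many rose and fell depended on scaling. The median of all tested genes moved by -0.61 log2 units between 7 and 25 DAP along the fitted lines, over the days in which the starchy endosperm markers climbed. With quantile normalization this shift was -0.01, and 12 members rose and 9 fell. When the libraries were rescaled without the 100 highest genes it was -0.06, and 13 members rose and 12 fell. Among all tested genes, 21.6% of calls were rises in the deposited FPKM, 49.1% after quantile normalization and 47.3% without the 100 highest genes. All 5 rises and 9 of the 19 falls were called under these scalings and under upper quartile scaling as well. Of the 19 falls, 7 were called under every one of 19 alternative settings, and of the 5 rises none.

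**Figure D2:**
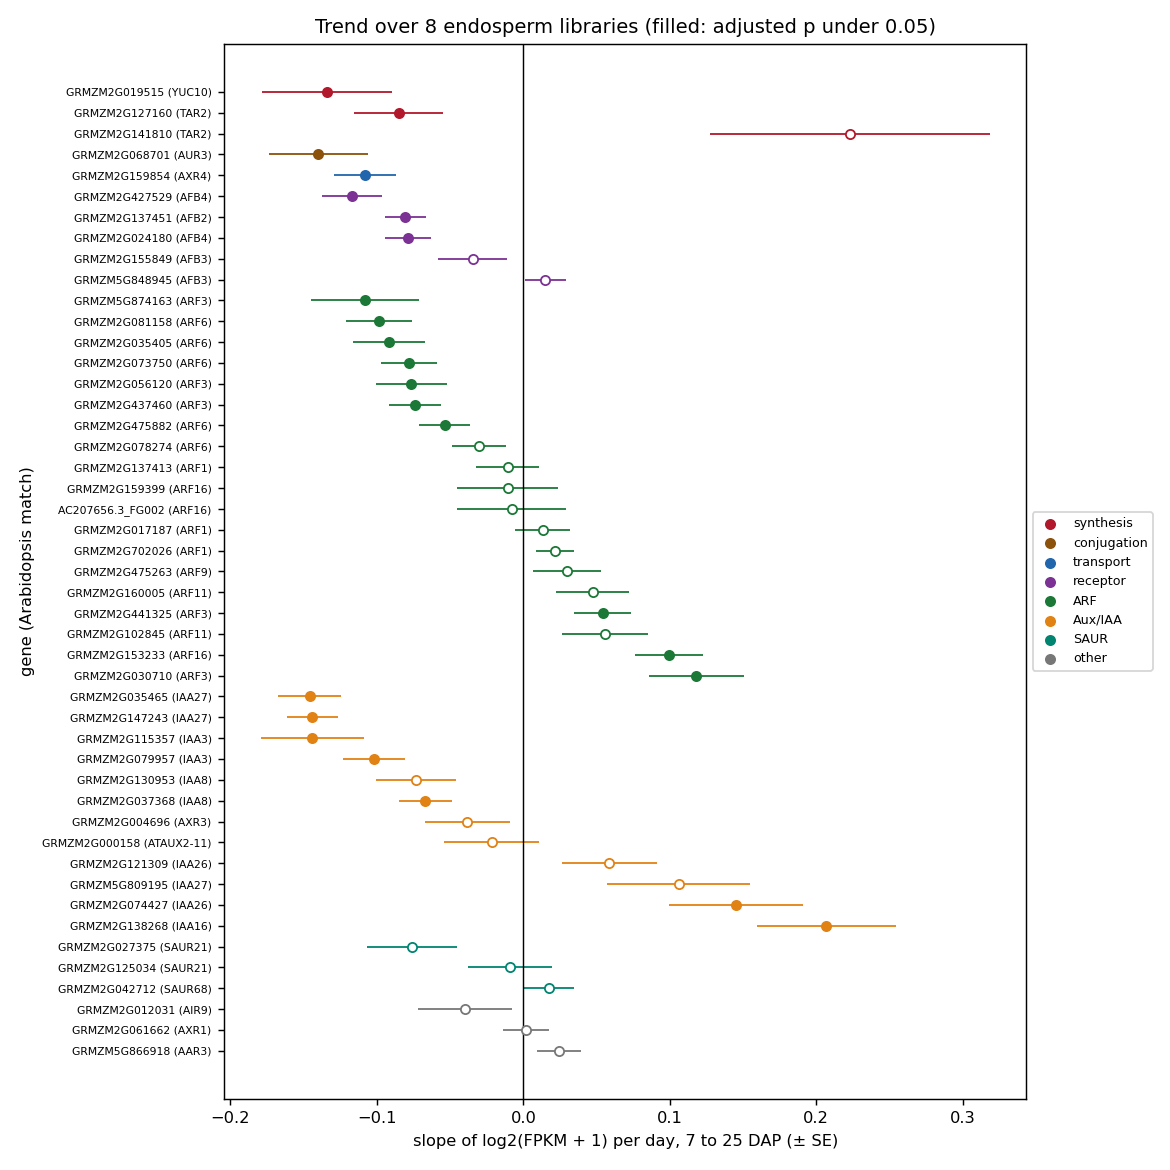
Slope of log2(FPKM + 1) per day over the 8 endosperm libraries (horizontal axis, with SE) for each of the 47 tested members (vertical axis, by role), filled where the adjusted p is under 0.05. The steepest falls, near -0.15 per day, are of Aux/IAA genes, and the rises are of 3 ARF and 2 Aux/IAA genes; TAR3 has the steepest positive slope, 0.22, and no call.

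Most synthesis transcript in endosperm came from a pair of aminotransferase genes, high at different times. TA1 (GRMZM2G127160) and TAR3 (GRMZM2G141810), both matched to Arabidopsis TAR2, together made up between 89.7% (7 DAP) and 99.9% (25 DAP) of the synthesis sum in endosperm, against 11.9% and 25.3% in whole seeds. TA1 was at 0.47 and 1.54 FPKM in whole seeds at 3 and 5 DAP, at 117, 152, 259, 203, 159.6, 183, 71.9 and 63.7 FPKM through the 8 endosperm stages, and at 0.01 FPKM in leaf. It was highest at 10 DAP, when it was number 121 by FPKM among the 34145 genes, and no endosperm library overlapped with whole seed or leaf. TAR3 was at 0.03 and 0.08 FPKM in whole seeds, at 2.15, 6.07, 62.0, 116, 119, 148, 196 and 82.0 FPKM over the same endosperm stages, and at 0 in leaf. It was low until 9 DAP and highest at 20 DAP, when it was number 121 in its turn. TA1 stood at 54.4 times TAR3 at 7 DAP, 4.18 times at 10 DAP, 1.23 times at 15 DAP and 0.366 times at 20 DAP. These ratios are within a library, so multiplying a whole library by a single factor does not change them, though quantile normalization can. How the authors' counting divided reads between close copies is not given in the sources used here, so values of near-identical family members are uncertain.

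The slope of TA1 was negative (slope -0.085 ± 0.030 log2 units per day (SE), adjusted p = 0.0442) and its curved test passed (adjusted p = 0.0307). The curve was not called without a filter (adjusted p = 0.0936), under quantile normalization (0.0818), without the 100 highest genes (0.0686), without the 11, 13 or 15 DAP library (between 0.0522 and 0.0615) or without the 20 and 25 DAP libraries (0.362). The fall was not called under quantile normalization (adjusted p = 0.211), rescaling without the 100 highest genes (0.247), upper quartile scaling (0.0991), without a filter (0.101) or with the filter over 11 libraries (0.0541). It was also lost without the 9, 10, 11, 13, 20 or 25 DAP library (adjusted p between 0.0519 and 0.262), with log2 of the day (0.0997) or the order of stages (0.163) in place of the day, and without both the 9 and 25 DAP libraries (0.258). Without both the 20 and 25 DAP libraries the slope turned positive (0.052, adjusted p = 0.517). TAR3 had no trend call (slope 0.22 ± 0.096 log2 units per day (SE), adjusted p = 0.0813), while its curved test passed (adjusted p = 0.00179), with the largest negative day-squared term among members called by curve alone. Its slope was called positive without the 25 DAP library (adjusted p = 0.0197), without the 9 and 25 DAP (0.0346) or the 20 and 25 DAP libraries (0.0135), and over log2 of the day (0.0218) or the order of stages (0.00786).

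**Figure D3:**
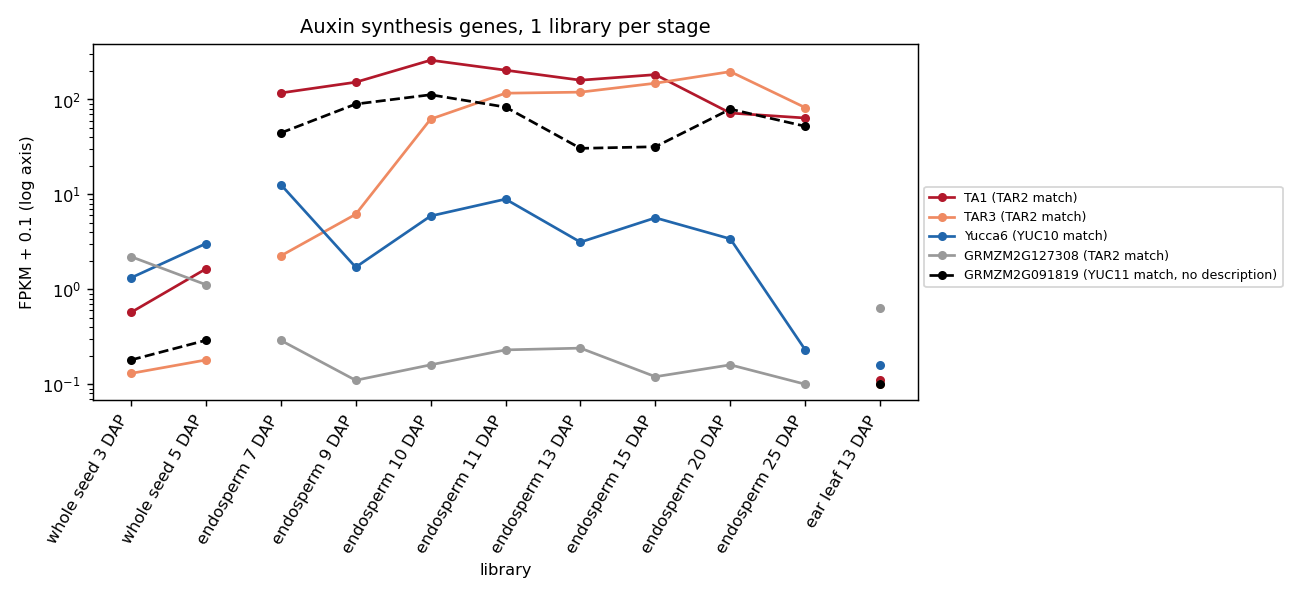
FPKM + 0.1 (log axis) of the 4 synthesis members that reached 1 FPKM, and of GRMZM2G091819, a YUC11 match without a description (dashed), in each library; each point is 1 library. TA1 is the highest from 7 to 15 DAP and TAR3 at 20 and 25 DAP, and both are at 0.01 FPKM or less in leaf.

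Of 8 YUCCA members, the enzymes of the second step, only Yucca6 (GRMZM2G019515, YUC10 match) reached 1 FPKM. It was at 1.22 and 2.93 FPKM in whole seeds, 12.6, 1.61, 5.82, 8.82, 3.04, 5.57, 3.30 and 0.13 FPKM through the endosperm stages and 0.06 FPKM in leaf. It was highest at 7 DAP, lower at 9 DAP and nearly absent at 25 DAP, and it fell (slope -0.13 ± 0.044 log2 units per day (SE), adjusted p = 0.0336). The call was lost under quantile normalization (adjusted p = 0.0709), rescaling without the 100 highest genes (0.0762), upper quartile scaling (0.0545), a pseudocount of 5 (0.0517), no filter (0.0997) and the order of stages (0.0941). It was lost without the 7 (0.106), 10 (0.0585), 11 (0.0549) or 25 DAP library (0.423), and without the 20 and 25 DAP libraries (0.631). The other YUCCA members stayed under 1 FPKM in all libraries, among them spi1 (GRMZM2G025222), known for its part in inflorescence growth, whose highest value was 0.33 FPKM. Of the aminotransferases, GRMZM2G127308 was high in the youngest tissue, with at most 0.19 FPKM in endosperm, against 2.11 and 1.02 FPKM in whole seeds and 0.53 FPKM in leaf, and GRMZM2G066345 did not exceed 0.20 FPKM.

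The choice of members by description left out a YUCCA gene at a far higher level, which was picked out after its values were seen. GRMZM2G091819, a YUC11 match, had 0.08 and 0.19 FPKM in whole seeds, 44.3, 89.4, 112, 83.1, 30.5, 31.7, 79.1 and 52.1 FPKM through the endosperm stages, and was listed at 0 in leaf. Like TA1 it was above both whole seeds and leaf in every endosperm library, with highs at 10 and 20 DAP and lows at 13 and 15 DAP. Neither its slope (adjusted p = 0.736) nor its curve (0.841) was called. The synthesis sums of the members do not hold this gene and are mostly those of the aminotransferases.

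Conjugation, in which GH3 enzymes join IAA to amino acids, was low and early. The AUR3 match GRMZM2G068701, of the GH3 family, was at 0.30 and 0.19 FPKM in whole seeds, 4.71, 2.96, 3.93, 1.82, 0.19, 0.18, 0.36 and 0.02 FPKM in endosperm and 0 in leaf. Its values were above 1 FPKM only between 7 and 11 DAP, and it fell (slope -0.14 ± 0.034 log2 units per day (SE), adjusted p = 0.00924), under all 19 settings. The GH3.9 match GRMZM2G414460 was at most 0.50 FPKM in endosperm, against 1.27 FPKM in both whole seeds. A pair of GH3.1 matches without a description, GRMZM2G378106 and GRMZM2G053338, had 7.28, 2.78, 10.3, 3.72, 0.89, 0.28, 0.99 and 0.08 FPKM and 7.50, 3.01, 5.94, 1.75, 0.46, 0.17, 0.19 and 0 FPKM through the endosperm stages, highest at 10 and at 7 DAP. They were at 0.73 and 0.67 FPKM and 1.38 and 0.99 FPKM in whole seeds and 1.13 and 0.09 FPKM in leaf, and both fell (adjusted p = 0.0132 and 0.00699). They were picked after their values were seen. Markers of transfer cells (54.9 FPKM at 25 DAP, against 1064.4 FPKM at 7 DAP) and of the embryo surrounding region (0.4 against 296.6 FPKM) were also far lower at the end, and their part in these falls, and in those of other genes with an early high, was not tested.

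Transport genes were low in endosperm. Of 11 PIN members, 5 reached 1 FPKM in some library. Each of the 5 was higher in both whole seeds than in every endosperm library, as were 42.4% of all genes that reached 1 FPKM. The PIN4 match GRMZM2G126260 had at most 0.16 FPKM in endosperm, against 1.28 and 1.19 FPKM in whole seeds. PIN8 (GRMZM5G839411), of a PIN type that in Arabidopsis lies in the endoplasmic reticulum, differed: it was at 2.75 and 1.89 FPKM in whole seeds and at 0.03, 0.17, 0, 0, 0.04, 0, 0.12 and 1.75 FPKM through the endosperm stages, with its only endosperm value above 0.17 FPKM at 25 DAP. None of the 11 averaged 1 FPKM in endosperm, so none was tested for trend.

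Of 3 LAX influx carriers, GRMZM2G067022 was at 1.05 and 0.90 FPKM in whole seeds, 2.37, 0.36, 0.74, 1.23, 0.37, 0.59, 0.29 and 0.48 FPKM in endosperm and 0.23 FPKM in leaf, highest at 7 DAP. The gene named aux1 in maize (GRMZM2G129413) reached 0.62 FPKM and GRMZM2G149481 0.11 FPKM. The match of Arabidopsis AUX1 itself, GRMZM2G127949, carried no description and was picked after its values were seen: it had at most 1.07 FPKM in endosperm, against 9.90 and 10.9 FPKM in whole seeds and 0.47 FPKM in leaf. From 7 to 20 DAP most of the transport sum in endosperm was of a helper rather than a carrier. GRMZM2G159854 matches AXR4, which in Arabidopsis brings AUX1 from the endoplasmic reticulum to the plasma membrane, and was at 3.90 and 3.90 FPKM in whole seeds, 11.0, 4.73, 10.5, 6.66, 4.69, 5.28, 2.40 and 1.87 FPKM in endosperm and 0.35 FPKM in leaf. It fell (slope -0.11 ± 0.021 log2 units per day (SE), adjusted p = 0.004), a call lost without the 20 and 25 DAP libraries (adjusted p = 0.187).

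All 7 F-box receptors were highest in a whole seed. In 6 of them both whole seeds were above every endosperm library, where this held for 42.4% of all genes that reached 1 FPKM. In endosperm 1 gene prevailed. The AFB3 match GRMZM5G848945 had 36.8 and 30.8 FPKM in whole seeds, 15.3, 16.1, 16.2, 18.99, 21.2, 17.2, 18.8 and 19.5 FPKM in endosperm and 7.00 FPKM in leaf. Its endosperm values were level and it had no trend call (adjusted p = 0.393), although it rose under quantile normalization (0.0229) and without the 100 highest genes (0.0166). The other AFB3 match, GRMZM2G155849, was lower in every endosperm library than in leaf, with 2.89, 1.44, 1.89, 0.89, 0.69, 0.67, 0.80 and 1.23 FPKM in endosperm, against 19.1 and 20.8 FPKM in whole seeds and 10.2 FPKM in leaf. Its curved test passed (adjusted p = 0.0134), but not without the 7 DAP library (0.113) or the 20 and 25 DAP libraries (0.0597), where its slope was called negative (0.0215). Of the 5 receptors tested, 3 fell, where 37.4% of all genes tested fell. The AFB4 match GRMZM2G427529 had 5.28, 5.71, 3.04, 3.21, 1.54, 1.36, 0.88 and 0.61 FPKM through the endosperm stages (slope -0.12 ± 0.020 log2 units per day (SE), adjusted p = 0.0024), after 5.86 and 6.03 FPKM in whole seeds. The AFB2 match GRMZM2G137451 had 4.21, 4.86, 3.78, 3.2, 2.93, 2.40, 1.27 and 1.29 FPKM in endosperm (slope -0.081 ± 0.014 log2 units per day (SE), adjusted p = 0.00245), a fall not called without the 20 and 25 DAP libraries (adjusted p = 0.0557). The AFB4 match GRMZM2G024180 also fell (adjusted p = 0.00433), but not under quantile normalization (0.0527). The remaining 2 AFB4 matches had at most 0.65 FPKM in endosperm. The match of TIR1 itself, GRMZM2G135978, had no description and was picked after its values were seen: it had 4.59, 3.42, 2.54, 2.66, 1.66, 1.87, 1.31 and 1.14 FPKM in endosperm, against 6.07 and 6.40 FPKM in whole seeds, and fell (adjusted p = 0.00675).

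Of 19 response factors tested, which bind DNA at auxin-responsive genes, 3 rose, 7 fell and 9 had no call. Of all genes tested, 10.3% rose and 37.4% fell, the share of falls being near that of the response factors. The median slope was -0.011 log2 units per day, beside -0.034 for all genes tested. The median of the response factors was positive under quantile normalization (0.021), upper quartile scaling (0.001) and without the 100 highest genes (0.023). Counts differed between matches of different Arabidopsis ARF genes, a difference that was not tested. Of 8 ARF6 matches, whose Arabidopsis relative is an activator under control of miR167, 5 were tested, 4 fell and none rose, and 1 of the 4 falls was called under quantile normalization. The highest of them in whole seeds, GRMZM2G035405 (ARF18 in maize), had 29.8 and 21.1 FPKM there and 3.67, 2.28, 1.45, 1.06, 0.65, 0.33, 0.24 and 0.39 FPKM in endosperm, with 2.34 FPKM in leaf. Its fall (adjusted p = 0.0143) was not called under quantile normalization (0.0697). GRMZM2G081158 fell under all 19 settings, with 3.22, 2.37, 1.0, 1.13, 0.44, 0.42, 0.43 and 0.02 FPKM through the endosperm stages (slope -0.098 ± 0.023 log2 units per day (SE), adjusted p = 0.00739).

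ARF3 matches, whose Arabidopsis relative is a repressor-type factor under control of trans-acting small RNAs, went both ways. Of 5 tested, 2 rose and 3 fell, where 10.3% of all genes tested rose and 37.4% fell. The rises were called under quantile normalization and the falls were not. GRMZM2G030710 was at 5.72 and 5.25 FPKM in whole seeds, 3.38, 6.77, 8.27, 15.4, 20.9, 20.2, 19.1 and 24.6 FPKM in endosperm and 5.92 FPKM in leaf. It became the highest ARF of the endosperm from 13 DAP on and rose (slope 0.12 ± 0.033 log2 units per day (SE), adjusted p = 0.0161), a call lost without a filter (adjusted p = 0.0537). GRMZM2G441325 (ARF23 in maize) was at 5.38 and 3.46 FPKM in whole seeds, 5.10, 4.94, 8.66, 8.5, 9.56, 12.1, 10.2 and 11.6 FPKM in endosperm and 0.37 FPKM in leaf. It rose narrowly (slope 0.054 ± 0.019 log2 units per day (SE), adjusted p = 0.0442), and the call was lost without the 7, 9, 10, 11, 13, 20 or 25 DAP library (adjusted p between 0.0519 and 0.137), without the 9 and 25 DAP libraries (0.0882) and without a filter (0.0783). Against these, GRMZM5G874163 fell, with 6.32, 7.77, 2.80, 3.68, 1.03, 1.69, 0.33 and 1.71 FPKM through the same stages and 6.33 FPKM in leaf (adjusted p = 0.0367). Its call was lost under quantile normalization (0.136), without the 100 highest genes (0.0891), without a filter (0.104) and without the 7, 9, 10, 11, 15 or 20 DAP library (between 0.0515 and 0.114).

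Matches of ARF10, ARF16 and ARF17, the Arabidopsis targets of miR160, numbered 10, of which 3 were tested. GRMZM2G153233 (ARF2 in maize, ARF16 match) had 24.4 and 25.2 FPKM in whole seeds, 2.10, 1.14, 3.48, 4.55, 5.25, 4.80, 6.42 and 9.05 FPKM in endosperm and 2.73 FPKM in leaf. It was far lower at 7 and 9 DAP than in whole seeds and then rose (slope 0.099 ± 0.023 log2 units per day (SE), adjusted p = 0.00778), a call lost without the 20 and 25 DAP libraries (adjusted p = 0.0641). GRMZM2G159399 (ARF17 in maize, ARF16 match) had 36.8 and 37.2 FPKM in whole seeds and 11.2, 3.2, 2.30, 2.65, 2.72, 3.08, 3.50 and 4.72 FPKM in endosperm, where no trend was called (adjusted p = 0.821). The 3 ARF1 matches had no call either. GRMZM2G702026 kept between 14.9 and 21.6 FPKM in endosperm, against 21.1 and 16.2 FPKM in whole seeds and 5.09 FPKM in leaf (adjusted p = 0.191), and rose under quantile normalization (0.00631) and without the 100 highest genes (0.00442). GRMZM2G137413 was the only ARF above both whole seeds in every endosperm library, with 12.1, 16.1, 11.6, 15.3, 16.8, 18.3, 8.34 and 14.2 FPKM in endosperm, against 7.20 and 6.84 FPKM in whole seeds and 3.66 FPKM in leaf.

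A pair of genes matched to the Arabidopsis locus AT1G19220, to which the deposited table gives the symbol ARF11, stood out at the last stage. GRMZM2G102845 had 3.14, 3.08, 2.36, 1.93, 2.67, 1.64, 2.27 and 9.18 FPKM and GRMZM2G160005 had 3.92, 4.03, 3.79, 3.26, 4.20, 3.00, 2.95 and 10.7 FPKM through the endosperm stages. Both were level until 20 DAP and high at 25 DAP, where their values exceeded those of the whole seeds (7.91 and 5.94 FPKM and 6.24 and 4.83 FPKM). Both passed the curved test (adjusted p = 0.00408 and 0.0203), which rested on the 25 DAP library: without it the adjusted p was 0.265 and 0.452. Slopes of both were called positive under quantile normalization (0.0362 and 0.0277) and without the 100 highest genes (0.0336 and 0.0232), and that of GRMZM2G160005 also without the 20 DAP library (0.0378). The curve of GRMZM2G160005 was lost without a filter (0.0572). The 5 embryo markers, which summed to 116.7 FPKM at 25 DAP, did not move as one: glb2, a seed storage globulin, was at 57.2 FPKM at 25 DAP, against 6.03 FPKM at 20 DAP and 1.39 FPKM or less from 7 to 11 DAP, while ole1, an oil body protein, was at 40.5 FPKM at 25 DAP, against 121 FPKM at 10 DAP. The part of embryo tissue in these highs was not tested. The other matches of AT1G19220, GRMZM2G317900 and GRMZM2G169820, had at most 1.0 and 0.86 FPKM in endosperm, against 20.0 and 19.02 FPKM and 15.6 and 13.2 FPKM in whole seeds.

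**Figure D4:**
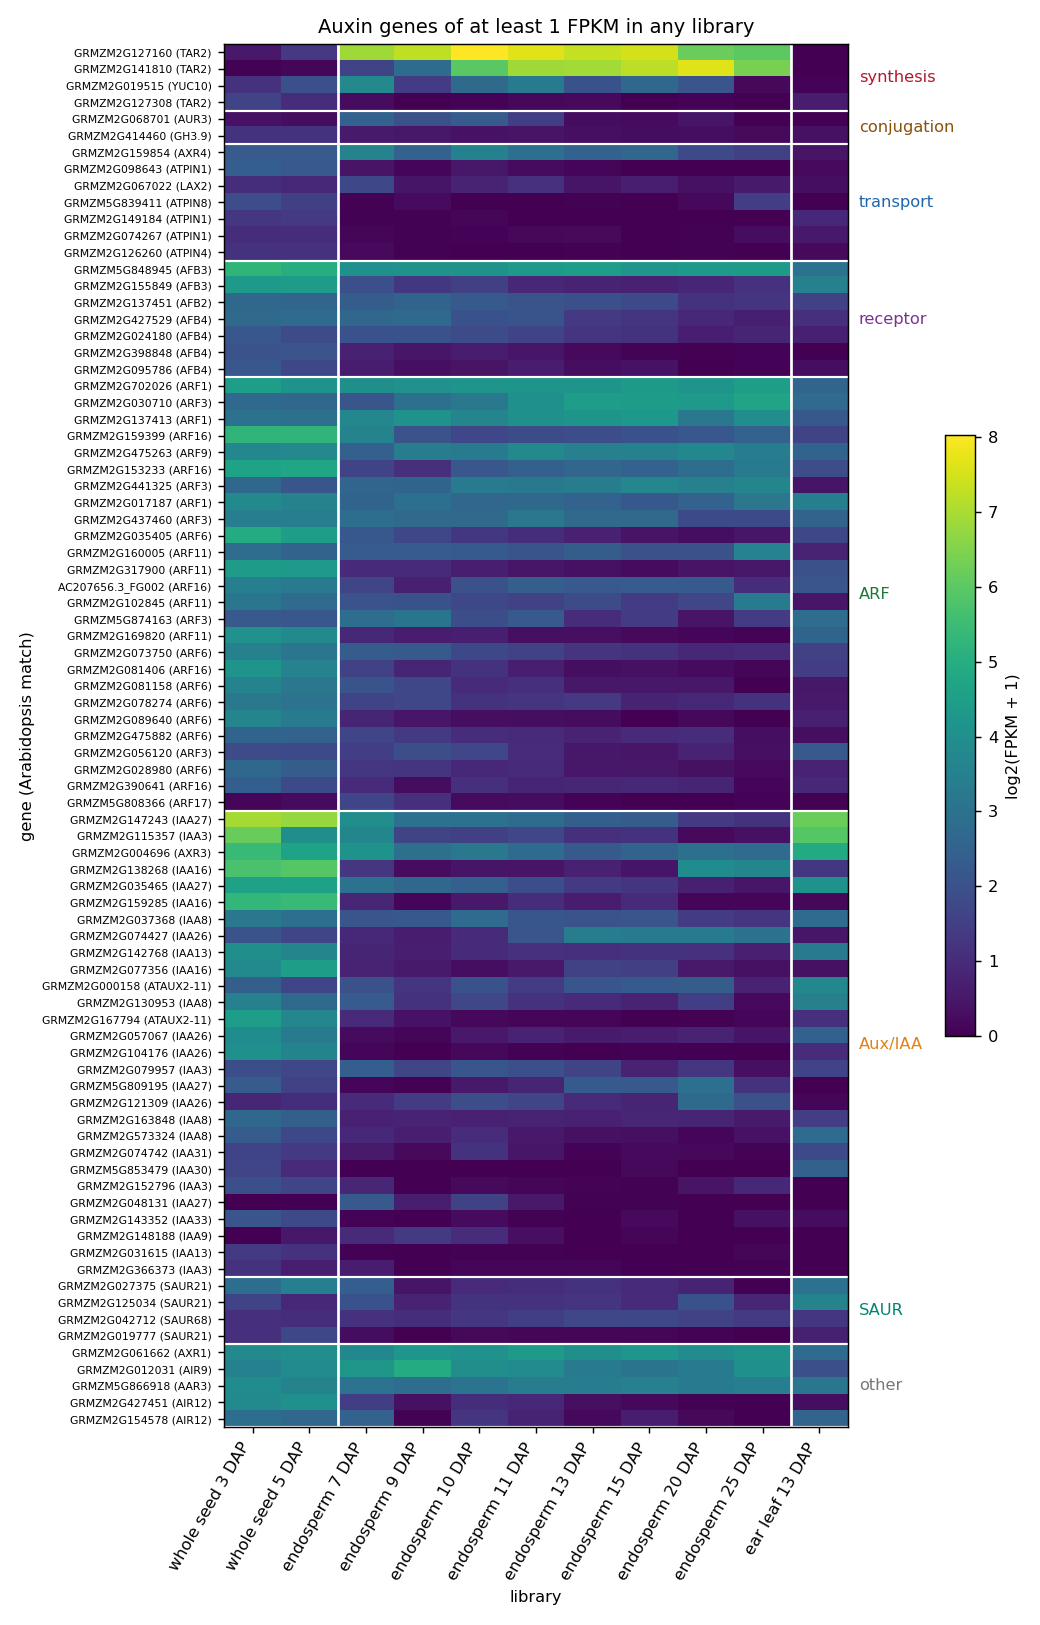
log2(FPKM + 1) (colour) of the 83 members that reached 1 FPKM (rows, by role and then by mean) in each of the 11 libraries (columns). TA1 and TAR3 are bright in endosperm alone, most PIN, receptor and Aux/IAA rows are brightest in the 2 whole seeds, and several Aux/IAA rows are bright in leaf as well.

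Aux/IAA repressors stood low in endosperm, with the lowest median ratio of the 5 large roles between the 7 DAP endosperm and the 3 DAP whole seed. Of 37, 28 reached 1 FPKM, and only 12 averaged 1 FPKM in endosperm. In 21 of the 28 both whole seeds were above every endosperm library, where this held for 42.4% of all genes that reached 1 FPKM. Of the 12 tested, 5 fell and 2 rose, where 37.4% of all genes tested fell and 10.3% rose, with a median slope of -0.053 log2 units per day, beside -0.034 for all genes tested. The highest of all, the IAA27 match GRMZM2G147243, was at 121 and 106 FPKM in whole seeds, 14.3, 6.93, 6.98, 5.92, 4.41, 4.06, 1.56 and 1.25 FPKM in endosperm and 73.4 FPKM in leaf. It stepped down between whole seed and endosperm and went on falling (slope -0.14 ± 0.018 log2 units per day (SE), adjusted p = 0.000838). AUX6 (GRMZM2G035465), also an IAA27 match, was at 22.9 and 22.9 FPKM in whole seeds, 7.22, 5.54, 4.56, 2.82, 1.56, 1.34, 0.63 and 0.40 FPKM in endosperm and 16.6 FPKM in leaf, and fell (slope -0.15 ± 0.021 log2 units per day (SE), adjusted p = 0.00134). The IAA3 match GRMZM2G115357 was already lower at 5 DAP: it had 69.7 and 15.1 FPKM in whole seeds, 11.7, 2.16, 1.89, 2.24, 1.11, 1.25, 0.15 and 0.29 FPKM in endosperm and 59.0 FPKM in leaf (slope -0.14 ± 0.035 log2 units per day (SE), adjusted p = 0.00987). AUX17 (GRMZM2G079957, IAA3 match) fell too (adjusted p = 0.005), and these 4 falls were called under all 19 settings. The fifth, of the IAA8 match GRMZM2G037368 (adjusted p = 0.0147), was lost under quantile normalization (0.192), without the 100 highest genes (0.0985), without the 25 DAP library (0.089) and without the 9 and 25 DAP (0.103) or 20 and 25 DAP libraries (0.703).

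AUX3 (GRMZM2G004696), the match of AXR3, was the most abundant Aux/IAA gene at 7 DAP and stayed at 3.81 FPKM or more. It had 42.6 and 24.1 FPKM in whole seeds, 16.2, 6.82, 8.23, 6.01, 3.81, 4.97, 6.76 and 6.06 FPKM in endosperm and 29.1 FPKM in leaf. Its trend was not called (adjusted p = 0.299) except without the 20 and 25 DAP libraries (0.0269), and its curve was (0.0443). That curve was lost under all 3 scalings (0.117 to 0.136), without a filter (0.118), with the filter over 11 libraries (0.0587) and without the 7 (0.471), 10 (0.074), 11 (0.07), 13 (0.0826) or 15 DAP library (0.0899).

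The Aux/IAA genes that rose did so at different times. The IAA16 match GRMZM2G138268 was at 51.3 and 59.6 FPKM in whole seeds, 1.39, 0.20, 0.36, 0.33, 0.66, 0.36, 14.0 and 11.8 FPKM in endosperm and 1.47 FPKM in leaf. It was under 1.50 FPKM from 7 to 15 DAP and back above 10 FPKM at 20 and 25 DAP, and its rise (slope 0.21 ± 0.047 log2 units per day (SE), adjusted p = 0.00729) was made by these last libraries. Without them the slope was -0.053 (adjusted p = 0.449), and without the 9 and 25 DAP libraries the adjusted p was 0.0778. The embryo markers did not move as one over these days. From 15 to 20 DAP, where this IAA16 match climbed, ole1 went down from 25.2 to 18.8 FPKM. Over the same step glb2 went up from 3.13 to 6.03 FPKM and the glb1 gene GRMZM2G067919 from 13.18 to 22.74 FPKM. At 25 DAP glb2 was at 57.2 FPKM and ole1 at 40.5 FPKM, while that glb1 gene was lower than at 20 DAP. The part of embryo tissue in the rise was not tested. The IAA26 match GRMZM2G074427 was at 3.16 and 2.18 FPKM in whole seeds, 0.89, 0.57, 1.0, 3.30, 9.49, 9.05, 9.05 and 7.02 FPKM in endosperm and 0.40 FPKM in leaf. It stepped up between 10 and 13 DAP and rose (slope 0.15 ± 0.046 log2 units per day (SE), adjusted p = 0.0273), a call lost without a filter (adjusted p = 0.0863) and without the 7 (0.0785), 10 (0.0538) or 20 DAP library (0.0744). The IAA27 match GRMZM5G809195 had a like step, with 0.07, 0.03, 0.47, 0.79, 3.81, 3.73, 6.58 and 1.24 FPKM through the endosperm stages. Its curve was called (adjusted p = 0.00299) and its slope was not (0.103), except without the 25 DAP library (0.00287), without the 9 and 25 (0.00508) or 20 and 25 DAP libraries (0.00664), and over log2 of the day (0.039) or the order of stages (0.0169).

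Many Aux/IAA genes were not tested for trend because they averaged under 1 FPKM in endosperm. The IAA16 match GRMZM2G159285 had at most 1.05 FPKM in endosperm, against 38.6 and 42.3 FPKM in whole seeds and 0.13 FPKM in leaf. AUX35 (GRMZM2G167794), AUX18 (GRMZM2G104176) and AUX10 (GRMZM2G057067) had at most 0.97, 0.12 and 0.73 FPKM in endosperm, against 21.6 and 12.2 FPKM, 15.5 and 11.4 FPKM and 13.9 and 9.16 FPKM in whole seeds. AUX9 (GRMZM2G048131) was the opposite, being listed at 0 in whole seeds and leaf and at 3.73, 0.59, 2.0, 0.45, 0.03, 0.03, 0 and 0 FPKM in endosperm, highest at 7 and 10 DAP. Of the barren inflorescence genes, named for their maize mutants, BIF1 (GRMZM2G130953) had 3.95, 1.22, 2.27, 1.25, 0.93, 0.69, 1.81 and 0.15 FPKM in endosperm, against 10.2 and 5.85 FPKM in whole seeds and 10.4 FPKM in leaf, with no call (adjusted p = 0.0514) and a called fall under 6 of the 19 settings (adjusted p between 0.0183 and 0.0401), and BIF4 (GRMZM5G864847) had at most 0.90 FPKM. The genes of this paragraph were picked after their values were seen.

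SAUR genes, small early-response genes linked to cell expansion, showed no called change by slope or curve in the deposited FPKM of endosperm (3 tested). GRMZM2G027375 had 4.32, 0.36, 0.97, 1.05, 1.22, 0.95, 0.75 and 0 FPKM in endosperm, against 6.53 and 10.0 FPKM in whole seeds and 6.96 FPKM in leaf (adjusted p = 0.067). It fell with a pseudocount of 0.1 (adjusted p = 0.03), without the 9 DAP library (0.0144) and over log2 of the day (0.0468), and its curve was called without the 7 (0.0227), 9 (0.0169) or 9 and 25 DAP libraries (0.0296). GRMZM2G125034 had 3.07, 0.75, 1.24, 1.26, 1.32, 0.92, 3.07 and 0.83 FPKM in endosperm, against 2.12 and 0.85 FPKM in whole seeds and 11.0 FPKM in leaf, where it was highest. GRMZM2G042712 kept between 1.09 and 2.35 FPKM in endosperm. It rose under quantile normalization (0.0379) and without the 20 and 25 DAP libraries (0.0495), and its curve was called under all 3 scalings (0.0104 to 0.0451). GRMZM2G019777 had at most 0.19 FPKM in endosperm.

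Among the 9 other members, none was called by slope (3 tested). The AXR1 match GRMZM2G061662, a subunit of the enzyme that activates RUB for the receptor complex, held between 12.3 and 18.8 FPKM in endosperm, against 12.7 and 14.3 FPKM in whole seeds and 5.96 FPKM in leaf (adjusted p = 0.937). The AAR3 match GRMZM5G866918 held between 6.26 and 10.2 FPKM in endosperm. It rose under quantile normalization (adjusted p = 0.018) and without the 100 highest genes (0.0104), and under the second of these so did the AXR1 match (0.049). The AIR9 match GRMZM2G012031 had 18.1, 29.9, 14.7, 13.7, 9.08, 7.41, 9.11 and 15.3 FPKM in endosperm, highest at 9 DAP and lowest at 15 DAP, and passed the curved test (adjusted p = 0.0378). That curve was lost under the 3 scalings (0.0523 to 0.0914), without a filter (0.108) and without the 10, 11, 13, 15, 20 or 25 DAP library (between 0.0601 and 0.122) or the 20 and 25 DAP libraries (0.099). Its slope was called negative without the 25 (0.0459), 9 and 25 (0.048) or 20 and 25 DAP libraries (0.0299). The AIR12 match GRMZM2G427451 had at most 1.75 FPKM in endosperm, against 13.0 and 15.4 FPKM in whole seeds.

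The step between whole seed and endosperm was in the same direction for most members. Both whole seeds were above every endosperm library in 55 of the 83 members that reached 1 FPKM, where this held for 42.4% of all such genes. They were 6 receptors, 16 ARF, 21 Aux/IAA, 5 transport, 3 other, 2 SAUR, 1 synthesis and 1 conjugation gene. Every endosperm library was above both whole seeds in 3 members, TA1, TAR3 and the ARF1 match GRMZM2G137413, where this held for 5.2% of genes. With 1 library each, endosperm at 7 DAP and whole seed at 3 DAP were compared without a test, as the log2 ratio of (FPKM + 1). Of 81 members of at least 1 FPKM in either library, 4 were at least 4-fold higher in endosperm, where 2.81% of all genes were, and 19 at least 4-fold lower, where 9.55% were. The 4 were TA1 (log2 ratio 6.33), Yucca6 (2.62), the AUR3 match GRMZM2G068701 (2.13) and AUX9, which is listed at 0 in the whole seed. Of the 19 lower, 11 were Aux/IAA and 6 ARF genes. The median log2 ratio was 2.11 for synthesis (4 genes), -0.97 for transport (7), -1.21 for receptors (7), -1.23 for ARF (26) and -1.61 for Aux/IAA genes (26), beside -0.45 for all genes. The median of all genes was 0.00 after quantile normalization, and those of the 5 roles kept their signs there.

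Endosperm and leaf of the same age, 13 DAP, were compared in the same way, again without a test. Of 56 members of at least 1 FPKM in either library, 6 were at least 4-fold higher in endosperm, where 6.62% of all genes were. These were TA1 (log2 ratio 7.31), TAR3, which is listed at 0 in leaf, the ARF3 match GRMZM2G441325 (2.95), the IAA26 match GRMZM2G074427 (2.91), the IAA27 match GRMZM5G809195 (2.24) and the AXR4 match (2.08). Members at least 4-fold lower in endosperm numbered 12, where 18.3% of all genes were lower, and 8 of the 12 were Aux/IAA genes. The lowest ratios among members of at least 10 FPKM were of the IAA3 match GRMZM2G115357 (-4.83), the IAA27 matches GRMZM2G147243 (-3.78) and AUX6 (-2.78), and the AFB3 match GRMZM2G155849 (-2.73). The median log2 ratio was -1.63 over 20 Aux/IAA genes, 0.23 over 20 ARF genes and 0.40 over 5 receptors, beside -0.33 over all genes. With quantile normalization these medians were -1.19, 0.79 and 0.96, beside 0.18 over all genes.

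**Figure D5:**
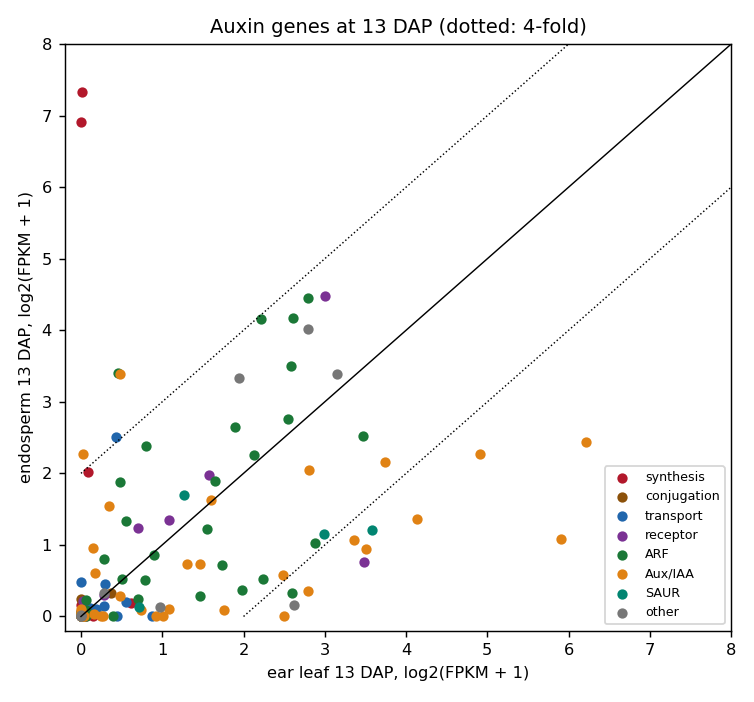
log2(FPKM + 1) of each of the 120 members in endosperm at 13 DAP (vertical axis) and in ear leaf at 13 DAP (horizontal axis), coloured by role, with the line of equality and dotted lines at 4-fold; each axis is 1 library. TA1 and TAR3 lie at the upper left, and 8 of the 12 members below the lower dotted line are Aux/IAA genes.

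Genes at the ends of the endosperm series, 25 DAP and 7 DAP, were compared as single libraries too. Of 56 members, 4 were at least 4-fold higher at 25 DAP, where 3.44% of all genes were: TAR3 (log2 ratio 4.72), the ARF3 match GRMZM2G030710 (2.55), the IAA16 match GRMZM2G138268 (2.42) and the IAA26 match GRMZM2G074427 (2.09). Members at least 4-fold lower at 25 DAP numbered 12, where 14.1% of all genes were lower, among them Yucca6 (-3.59), GRMZM2G115357 (-3.30) and GRMZM2G147243 (-2.77). At 9 DAP, 20 of the 47 tested members (42.6%) were below both the 7 and 10 DAP libraries, by any amount, as were 36.4% of all tested genes. Over all tested genes the median log2 ratio was -0.05 for 9 over 7 DAP and 0.03 for 10 over 9 DAP. For the tested members it was -0.08 and 0.08. The count takes no account of size, so it cannot tell how common lows as large as those of Yucca6 and the AXR4 match were.

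Other genes of the pathway, taken by keywords of their description, were followed in 4 groups. Of 10 genes of tryptophan supply, which feed the hormone's precursor, 8 were tested, 5 fell and none rose, where 37.4% of all genes tested fell and 10.3% rose. The anthranilate synthase match ASA2 (GRMZM2G161337) had 73.2, 81.1, 89.4, 91.3, 66.9, 67.9, 41.9 and 38.3 FPKM in endosperm, against 40.2 and 59.0 FPKM in whole seeds and 38.1 FPKM in leaf, with its high at 11 DAP, and fell (adjusted p = 0.0111). The ASB1 match GRMZM2G325131 had between 29.9 and 59.3 FPKM in endosperm and was not called (adjusted p = 0.267). Of 9 genes under amide release, the freeing of IAA from its amino acid conjugates, 4 were tested, 1 rose, 1 fell and all 4 passed the curved test, where 10.3% of all genes tested rose, 37.4% fell and 54.4% passed the curved test. The amidohydrolase matches IAR3 (GRMZM2G090779) and ILR1 (GRMZM2G016958) had 44.4, 38.8, 45.6, 63.7, 70.1, 92.8, 77.8 and 42.6 FPKM and 27.6, 11.1, 31.7, 52.9, 67.2, 79.9, 92.2 and 42.4 FPKM in endosperm, against 24.0 and 27.2 FPKM and 5.31 and 7.94 FPKM in whole seeds. Leaf was at 13.0 and 13.0 FPKM. Both were highest at 15 or 20 DAP, and both passed the curved test (adjusted p = 0.0327 and 0.0334) without a trend call. The gene that fell there, an IAR1 match (GRMZM2G001803), is a metal transporter in Arabidopsis rather than a hydrolase.

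Of 12 genes of the response machinery, 10 were tested, 4 fell and none rose, a share of falls near the 37.4% of all genes tested. The RUB1 match GRMZM2G116689, a ubiquitin-like protein that modifies the cullin of the receptor complex, had 99.2, 125, 93.2, 138, 105, 100.4, 61.6 and 57.0 FPKM in endosperm and fell (adjusted p = 0.0304), while the CUL1 match GRMZM2G166694, that cullin, had between 29.0 and 49.7 FPKM and no call (adjusted p = 0.183). Of 20 genes of the transport machinery, 9 were tested, 1 rose and 2 fell, where 10.3% of all genes tested rose and 37.4% fell. The rise was of the SNX1 match GRMZM5G839592, a sorting nexin that in Arabidopsis takes part in PIN traffic, with 33.9, 42.0, 47.0, 53.7, 70.4, 87.3, 62.7 and 80.0 FPKM in endosperm (adjusted p = 0.0475). The other SNX1 match, GRMZM2G169412, had between 16.3 and 31.9 FPKM and no call (adjusted p = 0.104). These proteins have many other uses.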

How the data were processed

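Poly(A) RNA of 11 Mo17 libraries was analysed from the FPKM values that the authors calculated and deposited for 34145 genes, to 2 decimals. The tools named, per the submitters' processing notes, were cutadapt, TopHat2 and edgeR. The sources used here give neither their versions nor the build or counting program. Library sums were between 273651 and 300271 FPKM, read counts are unknown, and no interval could be given. No column was left unused. Samples were grouped by the labels' tissue and day, with 1 library per group.

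The members and lists were chosen with earlier results of these data known. Roles were set from the matched Arabidopsis gene, in place of planned keywords that did not suit the wording of the descriptions. For the same reason 2 planned pathway keywords were dropped because they matched unrelated proteins. Maize names came from synonyms in a RefSeq gene table (Zm-B73-REFERENCE-NAM-5.0), which served for nothing else and in which 81 of 120 members matched and 39 did not. Promoter and protein sequences were not used here.

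Slopes of log2(FPKM + 1) per day over the 8 endosperm libraries were tested with limma 3.58.1 in R 4.3.3 (moderated, with a mean-variance trend, two-sided, 6 residual degrees of freedom), for the 15149 genes averaging 1 FPKM or more, with Benjamini-Hochberg adjustment over all of them and a threshold of 0.05. The curved test was limma's F-test of both day terms (5 residual degrees of freedom). The slope fit was tested on simulated data with known slopes. Fold changes on this scale understate changes of low genes. Pairs of single libraries had no test and were described by the ratio of (FPKM + 1), at least 4-fold counting as apart, over genes of at least 1 FPKM in either. Text and figures used Python 3.11.15, pandas 2.3.3, numpy 2.4.6 and matplotlib 3.10.9. Alternatives were pseudocounts of 0.1 and 5, other filters, 3 scalings, each library left out, pairs of libraries left out, and log2 of the day or the order of stages.

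Named members were the 4 highest of each role by mean FPKM, every synthesis and transport member of at least 1 FPKM, the 6 steepest calls in each direction, the 4 largest day-squared terms each way among members called by curve alone, the 4 highest and 4 lowest endosperm-to-leaf ratios among members of at least 10 FPKM, and the 2 highest genes of each pathway group. Some transport members that this rule names are not reported here. Other genes named with values were chosen after their values were seen.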

Additional observations from a re-analysis of the deposited data

How the results depend on the processing

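The count of rising members, 5 with the deposited FPKM, was 2 without a filter, 12 under quantile normalization and 13 without the 100 highest genes, and between 3 and 6 when single libraries were left out. The count of falling members, 19, was 9 under quantile normalization and 12 without the 100 highest genes, and between 15 and 18 with single libraries left out. The curved test called 30 members without the 9 and 25 DAP libraries and 13 without the 20 and 25 DAP libraries, in place of 29. The cause was not tested. The setting without the 20 and 25 DAP libraries reversed the slope of TA1 (GRMZM2G127160) to 0.0518 and of the IAA16 match GRMZM2G138268 to -0.0531. It moved the median slope of the 3 tested SAUR genes to -0.085, and of the 3 tested other genes to 0.038. That last median was -0.040 with the filter over all 11 libraries, 0.035 under quantile normalization and 0.040 without the 100 highest genes, beside 0.002; the cause was not tested. A pseudocount of 0.1 moved the median log2 ratio of synthesis genes between endosperm and leaf at 13 DAP, 6.91 with a pseudocount of 1, to 10.22, and that of transport genes between 7 DAP endosperm and 3 DAP whole seed, -0.97, to -2.60, because values near 0 set these ratios. The median slopes of the synthesis, receptor, ARF and Aux/IAA genes stayed within the spread of their members under each alternative run for them, though those of ARF genes changed sign under 3 scalings and that of synthesis genes, -0.085, was 0.052 without the 20 and 25 DAP libraries. No paired analysis was possible because each stage had 1 library. The lack of replicates and the unknown depth limit every value.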
